A study of Anolis sagrei with 15 samples.

Results

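The receptors and ligands through which vertebrates grow and stabilise blood vessels were examined in the posterior eye of embryos of the brown anole, *Anolis sagrei*, at Sanger stage 16.5. Gene models were taken by symbol, with letter case ignored, for the ligands VEGFA, VEGFC, ANGPT1 and ANGPT2 and the receptors FLT1, KDR, FLT4, TEK and TIE1. The rule found 18 of the 20235 gene models in the count table, since 5 of the symbols stand on more than 1 gene model. Of these, 14 held enough reads to be tested, among 15910 gene models tested in all. The libraries came from the central region (n = 5), the temporal region (n = 5) and the nasal region (n = 5) of the posterior globe. All 3 regions share the stage and wild-caught parents, and no animal was treated or carried a mutation. The study describes pooled tissue of 3 embryos of mixed sex, without saying which embryos went into which replicate. Nothing states that replicates are separate embryos, so p-values measure the spread between these libraries, which may be technical.

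VEGFA is the main ligand that draws new vessels towards a tissue, and cells make more of it when oxygen is short. It binds KDR, the chief signalling receptor of endothelial cells, and FLT1, which binds it tightly but signals weakly and so limits how much reaches KDR. VEGFC acts mainly through FLT4 and is best known for growth of lymphatic vessels. ANGPT1, made by cells around vessels, activates TEK and quietens the vessel wall, ANGPT2 from endothelial cells can oppose it, and TIE1 is a partner receptor of TEK. The retina of lizards holds no vessels of its own and is fed by the choroid and by the conus papillaris, a vascular tuft on the optic nerve head. In mouse embryos KDR is found in retinal progenitors as well as in endothelium.

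Each library held 15177438 to 27035312 counted reads. The central replicate 4 library stood apart from the rest, with 5241 gene models at 0 reads, against 1618 to 2744 in the other 14 libraries. Its summed level of 32 endothelial gene models was 319 CPM (reads as counts-per-million of the library's total, scaled by TMM), against 121 to 137 CPM in the other central libraries. It had the highest level of all 15 libraries for 20 of those 32. Results that rest on it are given with and without it. The tissue label matched its markers: all 21 neural retina gene models were tested, and their summed level was 9644 to 12038 CPM in central, 7961 to 11735 CPM in temporal and 8019 to 10618 CPM in nasal libraries. Of the defining endothelial genes, PECAM1 and CDH5 had reads in every library, while ERG was at 0 in 12 libraries and SOX17 in 14.

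Several symbols stand on more than 1 gene model, and these did not behave alike. VEGFA, FLT4 and ANGPT2 have 2 gene models each, FLT1 has 3 and KDR has 5. Of the 18 gene models, 12 share neighbouring genes with the gene of that name in the RefSeq table of the rAnoSag1 assembly, where identifier order was taken as order along the genome, which was not tested. FLT1 ANOSAT008868 lies beside FLT3, PAN3, POMP and SLC46A3, as FLT1 does in RefSeq. KDR ANOSAT012856 to ANOSAT012859 are 4 consecutive identifiers between KIT and SRD5A3, the flanks of KDR in RefSeq. FLT1 ANOSAT019567, FLT1 ANOSAT019568 and KDR ANOSAT019569 are consecutive as well, but share no neighbour with RefSeq FLT1 or KDR. The symbols rest on protein similarity, so whether these last 3 are FLT1 and KDR themselves or related receptors cannot be told apart here. Pieces of 1 gene or near-identical copies could also split reads between gene models.

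VEGFA was the member with the clearest regional difference, and it was highest in the central region. VEGFA ANOSAT002723 had 240, 238, 295, 248 and 298 CPM in central libraries, 108, 105, 145, 161 and 196 CPM in temporal libraries and 95.8, 137, 152, 159 and 113 CPM in nasal libraries. Every central library lay above every temporal and every nasal library, while temporal and nasal libraries overlapped. The mean was 264 ± 30.2 CPM in central (SD, n = 5), 143 ± 38.1 CPM in temporal (SD, n = 5) and 131 ± 26.7 CPM in nasal (SD, n = 5). Central exceeded nasal by 1.01 on the log2 scale (SE 0.166), a 2.01-fold difference (edgeR quasi-likelihood test, adjusted p = 0.000252). Central exceeded temporal by 0.88 (SE 0.166, edgeR adjusted p = 0.00229). Temporal and nasal differed by 0.13, with a 95% interval of -0.20 to 0.45 (edgeR adjusted p = 0.797). The order of the regions was therefore central first, with temporal and nasal not separated beyond their spread. Both central differences passed in all 24 alternatives tried, and without central replicate 4 they were 1.03 and 0.90. In bulk tissue, more VEGFA transcript per cell and more of the cells that make it cannot be told apart.

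**Figure D1:**
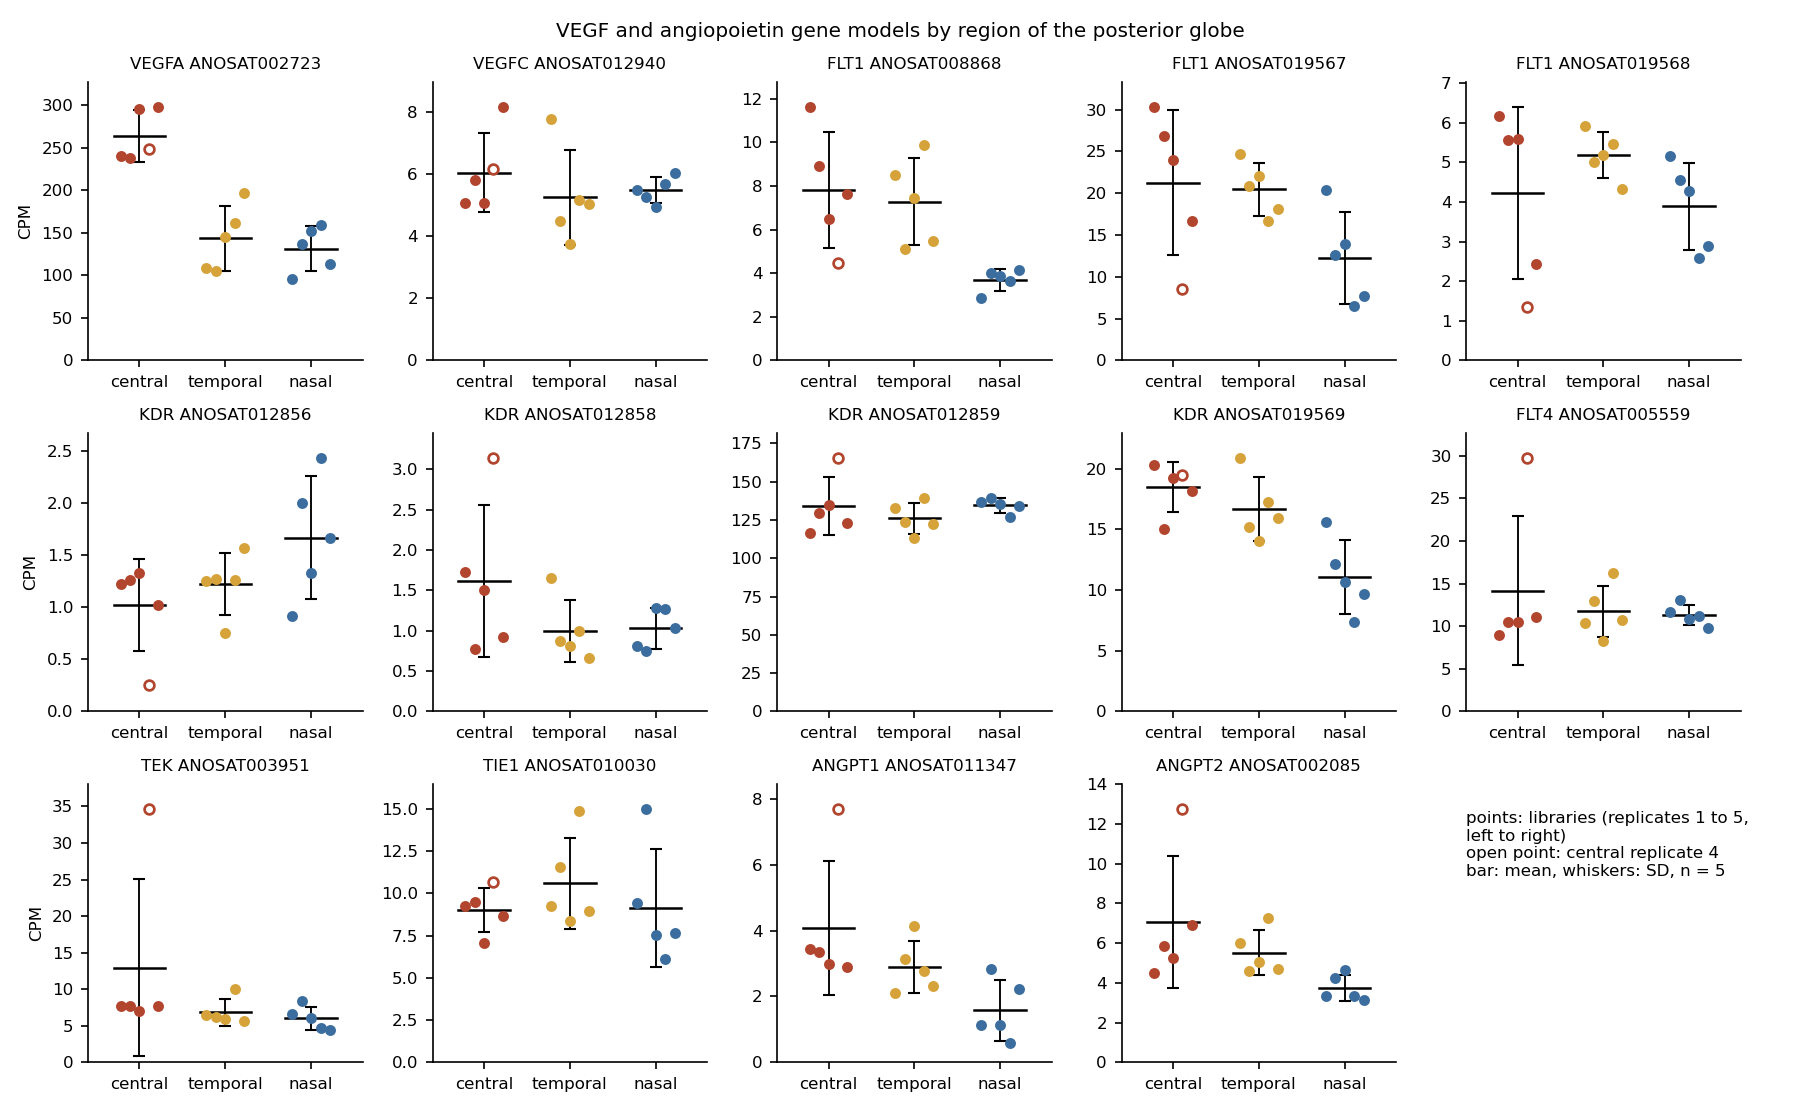
Level of the 14 tested gene models in CPM, by region, with 1 point per library, the mean as a bar and the SD as whiskers (n = 5 per region). VEGFA lies at 238 to 298 CPM in central libraries, above all temporal and nasal libraries, while TEK and FLT4 in central are raised by the open point, central replicate 4.

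The second VEGFA gene model hardly contributed. VEGFA ANOSAT015568, which lies beside ERCC2 and PPP1R13L and shares no neighbour with RefSeq VEGFA, held 37 reads over all 15 libraries. Its regional difference was not tested. It took at most 0.264% of the VEGFA reads of a library (temporal replicate 2, exact Clopper-Pearson 95% interval 0.106% to 0.543%, for counting error only). The two-sided exact permutation p for the share was 0.722 between central and nasal, 0.635 between central and temporal and 0.563 between temporal and nasal. With 37 reads in all, 15 of them in central replicate 2, this test could hardly show a difference, and no conclusion is drawn. The other untested members were KDR ANOSAT012857 with 12 reads, FLT4 ANOSAT008678 with 2 reads, both in nasal replicate 5, and ANGPT2 ANOSAT016223 with 58 reads.

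Central and nasal were the regions that differed most in this gene family, as they were over all gene models tested. Of the 14 tested members, 5 were called in central against nasal, all of them higher in central, and none was lower. Among all gene models tested, 18.4% were called in either direction and 10.4% were higher. In central against temporal only VEGFA was called, as a higher value in central, against 6.78% of all gene models (3.54% higher). In temporal against nasal only FLT1 ANOSAT008868 was called, as higher in temporal, against 6.59% of all gene models (4.40% higher). For 14 members, 1 call in each of these contrasts is about the share over all gene models in either direction. The median difference of the 14 was 0.69 on the log2 scale for central minus nasal, against -0.03 over all gene models tested, and 0.34 without central replicate 4. It was 0.18 for central minus temporal, against -0.01, and 0.20 for temporal minus nasal, against -0.01. Libraries of the regions did not overlap for 3 members in central against nasal, where this held for 13.3% of all gene models, and for 1 each in the other contrasts, where it held for 7.29% and 9.13%. Blocked by replicate number, 6 members were called in central against nasal, 1 in central against temporal and 3 in temporal against nasal. All gene models called then numbered 4437, 2022 and 2214 of 15910. The contrasts share libraries and are not independent of each other.

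**Figure D2:**
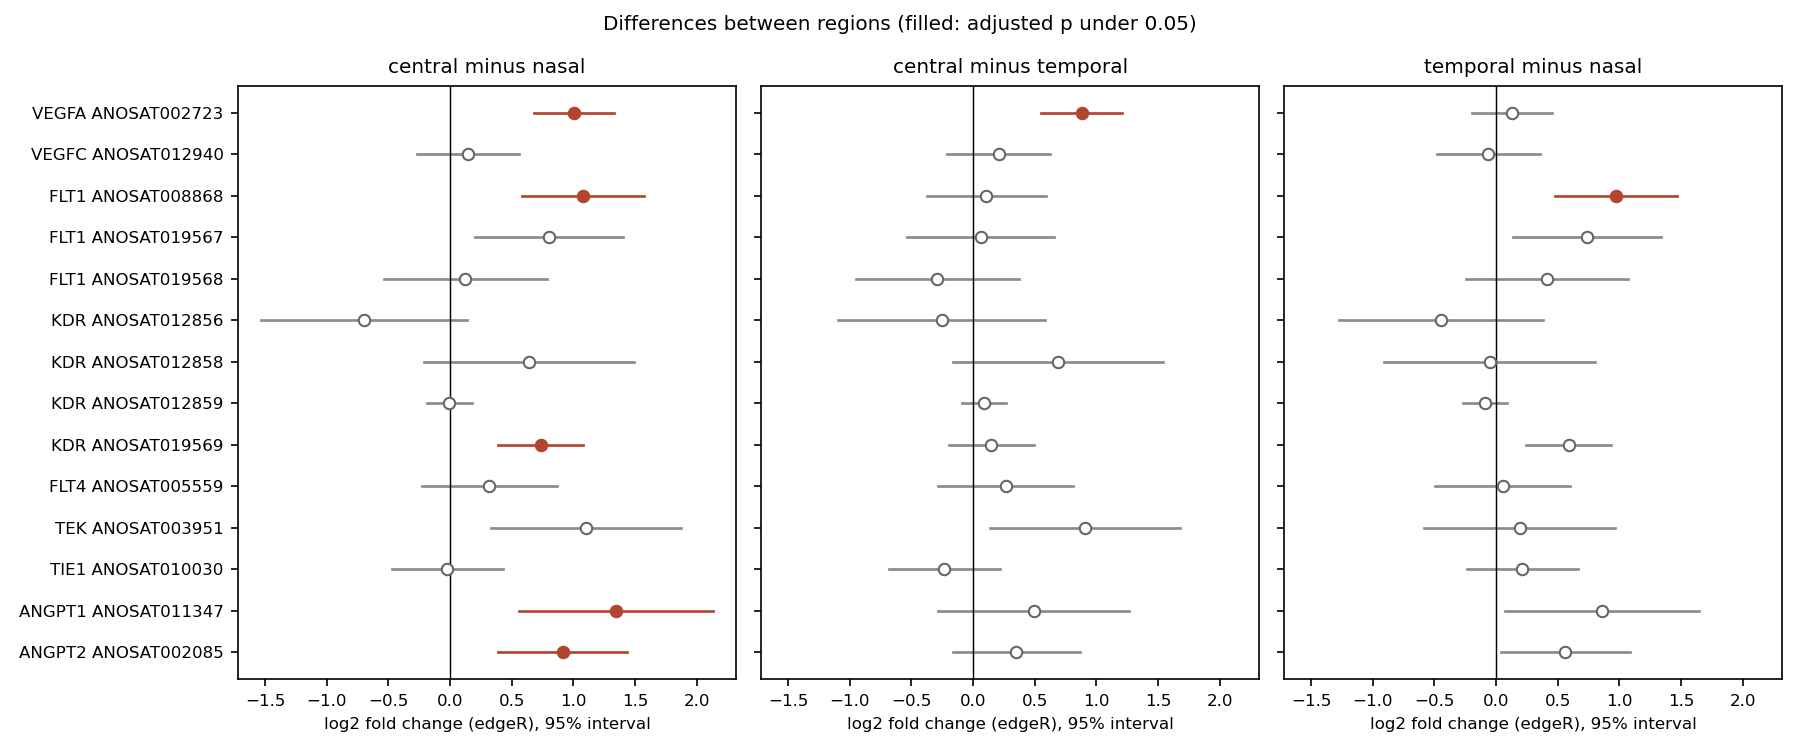
Log2 difference of each tested member gene model in the 3 contrasts, with its 95% interval; filled points passed an edgeR adjusted p of 0.05. In central minus nasal 5 are filled, all to the right of 0, and KDR ANOSAT012859 sits at -0.01 with the narrowest interval.

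Among the VEGF receptor gene models, FLT1 ANOSAT008868 was lower in nasal than in both other regions. FLT1 ANOSAT008868, the gene model with the RefSeq neighbours, had 11.6, 8.90, 6.49, 4.49 and 7.62 CPM in central libraries, 8.50, 5.13, 7.44, 9.86 and 5.49 CPM in temporal libraries and 2.84, 4.01, 3.89, 3.65 and 4.13 CPM in nasal libraries. All central and all temporal libraries lay above all nasal ones. Central exceeded nasal by 1.08, a 2.11-fold difference (SE 0.252, edgeR adjusted p = 0.00519), which passed in all 24 alternatives. Temporal exceeded nasal by 0.97 (SE 0.252, edgeR adjusted p = 0.0254). That call was lost without nasal replicate 1, 2 or 4 or temporal replicate 1, 3 or 4, where the adjusted p was 0.0505 to 0.0855. Central and temporal differed by 0.11, with an interval of -0.38 to 0.59. FLT1 ANOSAT008868 thus did not follow VEGFA in the temporal region, where VEGFA was near its nasal level and this FLT1 gene model near its central level.

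The receptor gene models without RefSeq neighbours showed the same order in part. KDR ANOSAT019569 had 20.3, 15.1, 19.3, 19.5 and 18.2 CPM in central libraries, 20.9, 15.2, 14, 17.2 and 15.9 CPM in temporal libraries and 15.6, 12.2, 10.6, 7.36 and 9.65 CPM in nasal libraries. Only nasal replicate 1 reached into the central range. Central exceeded nasal by 0.74 (SE 0.176, edgeR adjusted p = 0.00614), in all 24 alternatives. Temporal minus nasal was 0.59 (edgeR adjusted p = 0.0537), and passed with the replicate number as a block (adjusted p = 0.0132) and without central replicate 4 (adjusted p = 0.0402).

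FLT1 ANOSAT019567 had 30.3, 26.8, 24.0, 8.59 and 16.7 CPM in central libraries, 24.7, 20.8, 22.1, 16.7 and 18.1 CPM in temporal libraries and 20.4, 12.7, 13.9, 6.51 and 7.74 CPM in nasal libraries. Libraries with the same replicate number moved together, and central and temporal exceeded nasal in 5 of 5 pairs each. Central minus nasal was 0.80 (edgeR adjusted p = 0.0814) and temporal minus nasal 0.74 (adjusted p = 0.192), and neither passed. Central replicate 4 was the lowest central library, and without it central exceeded nasal by 0.999 (adjusted p = 0.0102). With the replicate block both contrasts passed, at 0.80 (adjusted p = 0.00212) and 0.85 (adjusted p = 0.00301). The block raised the members called in temporal against nasal to 3, while its share of all gene models was 13.9%. The third of these gene models, FLT1 ANOSAT019568, was called in no contrast, with a central minus nasal difference of 0.12 (interval -0.54 to 0.78).

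KDR at the RefSeq position was level across the eye. KDR ANOSAT012859 had 117, 130, 135, 166 and 123 CPM in central libraries, 133, 123, 113, 139 and 122 CPM in temporal libraries and 137, 139, 135, 127 and 134 CPM in nasal libraries. Central minus nasal was -0.01, with an interval of -0.19 to 0.17 on the log2 scale. The highest of the 15 libraries was central replicate 4. The gene models before it with few reads, KDR ANOSAT012856 and KDR ANOSAT012858, stayed at 0.256 to 3.14 CPM and gave differences of -0.70 and 0.64 (edgeR adjusted p = 0.295 and 0.357), or -0.46 and 0.25 without central replicate 4. With all gene models of a symbol summed, central exceeded nasal by 0.76 for FLT1 (edgeR adjusted p = 0.0453) and differed by 0.07 for KDR (adjusted p = 0.651). Summed FLT1 for temporal minus nasal was 0.73 and did not pass (edgeR adjusted p = 0.0995).

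For VEGFC and its receptor FLT4 no regional difference was called. VEGFC ANOSAT012940 was at 5.05 to 8.15 CPM in central, 3.75 to 7.77 CPM in temporal and 4.92 to 6.04 CPM in nasal libraries, with a central minus nasal difference of 0.14 (interval -0.27 to 0.56). FLT4 ANOSAT005559 had 8.96, 10.5, 10.5, 29.7 and 11 CPM in central libraries, 8.25 to 16.2 CPM in temporal and 9.77 to 13.1 CPM in nasal libraries. Only the central replicate 4 library stood out. The FLT4 central minus nasal difference was 0.32 (interval -0.23 to 0.87, edgeR adjusted p = 0.497), and without that library it was -0.14.

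Both angiopoietins were higher in central than in nasal. ANGPT1 ANOSAT011347 had 3.45, 3.34, 3.0, 7.69 and 2.88 CPM in central libraries, 2.11, 3.14, 4.12, 2.76 and 2.31 CPM in temporal libraries and 1.13, 2.84, 1.13, 0.582 and 2.22 CPM in nasal libraries. Every central library lay above every nasal one, and the temporal libraries lay between or overlapped both. Central exceeded nasal by 1.35 (SE 0.403, edgeR adjusted p = 0.0254). Without central replicate 4 the difference was 0.98 and did not pass (adjusted p = 0.0580), nor did it without nasal replicate 1, 3 or 4 (0.0555 to 0.0635) or with only the central and nasal libraries fitted (0.0624).

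ANGPT2 ANOSAT002085 had 4.51, 5.86, 5.27, 12.8 and 6.93 CPM in central libraries, 6.0, 4.58, 5.06, 7.29 and 4.71 CPM in temporal libraries and 3.33, 4.26, 4.63, 3.34 and 3.14 CPM in nasal libraries. Central exceeded nasal in 5 of 5 pairs, by 0.91 (SE 0.267, edgeR adjusted p = 0.0219). The difference was 0.59 without central replicate 4 and still passed (adjusted p = 0.0453), but not without nasal replicate 4 or 5 (0.0536 and 0.0578). The call was also lost when only the central and nasal libraries were fitted (adjusted p = 0.0527) and with limma-voom, where the difference was 0.48 (adjusted p = 0.0870). Temporal minus nasal was 0.86 for ANGPT1 and 0.56 for ANGPT2, and neither passed (edgeR adjusted p = 0.272 and 0.278).

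TEK, the receptor of both, depended on a single library. TEK ANOSAT003951 had 7.68, 7.75, 7.05, 34.7 and 7.71 CPM in central libraries, 6.46, 6.17, 6.0, 10.1 and 5.62 CPM in temporal libraries and 6.60, 8.35, 6.01, 4.77 and 4.37 CPM in nasal libraries. Central minus nasal was 1.10 (edgeR adjusted p = 0.0616), and without central replicate 4 it was 0.33 (adjusted p = 0.311). TIE1 ANOSAT010030, by contrast, was at 7.05 to 10.6 CPM in central libraries, central replicate 4 included, 8.37 to 14.8 CPM in temporal and 6.09 to 15 CPM in nasal libraries, and central minus nasal was -0.02 (interval -0.47 to 0.43).

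**Figure D3:**
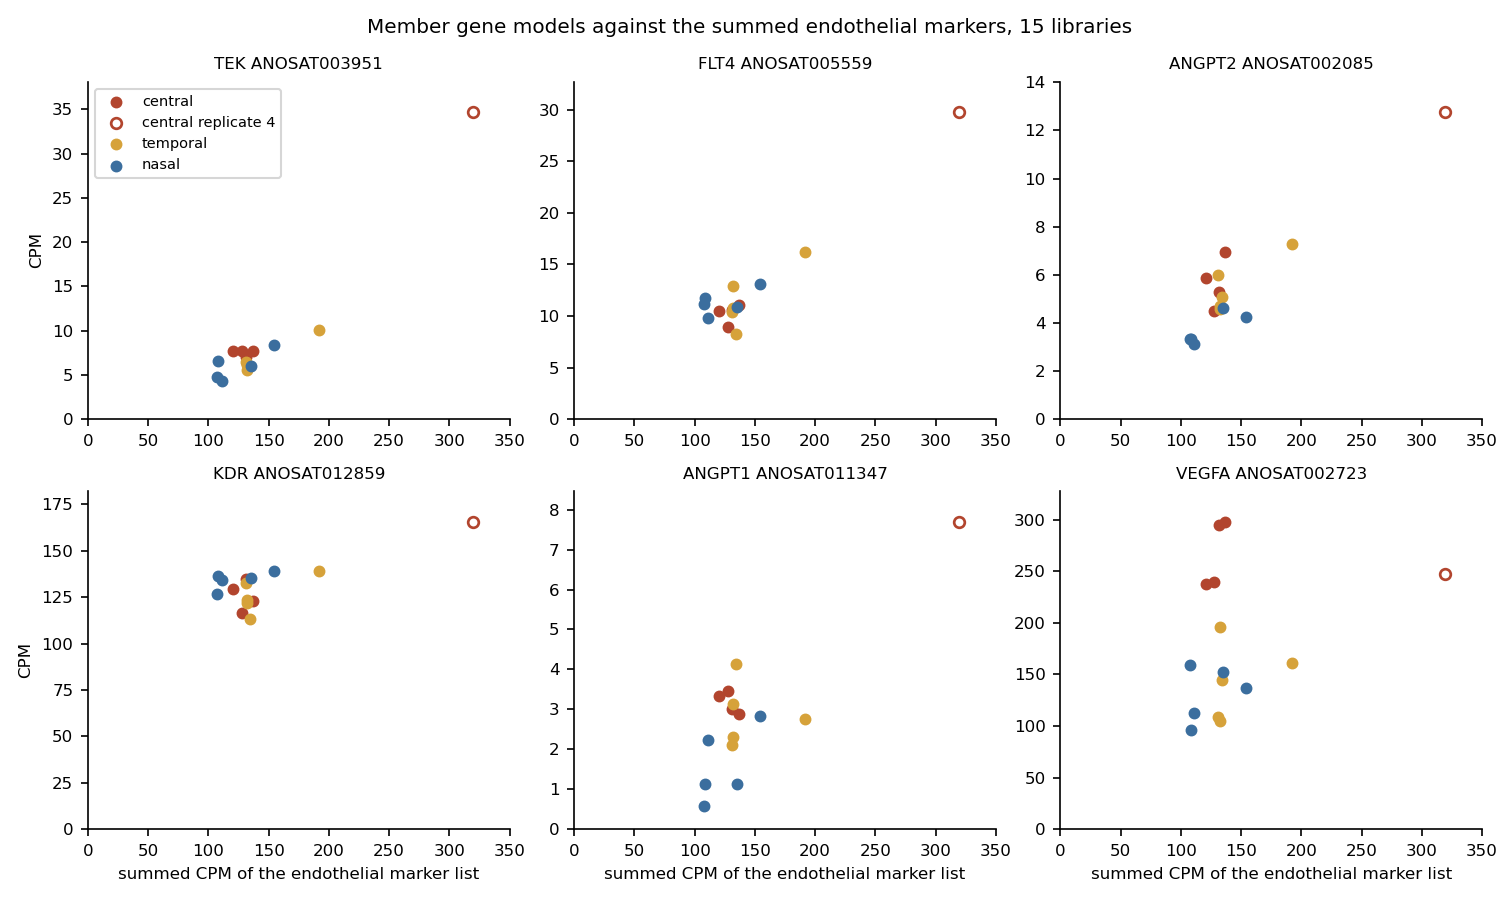
CPM of 6 member gene models against the summed CPM of the endothelial marker list, with 1 point per library (15 in all). TEK, FLT4, ANGPT2 and ANGPT1 are highest in the open point at 319 CPM of markers, central replicate 4. VEGFA lies at 248 CPM in that library, within the range of the other central libraries.

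The endothelial list, which holds no member, was summed to 121 to 319 CPM in central, 131 to 192 CPM in temporal and 107 to 154 CPM in nasal libraries. Of its 25 tested gene models, PECAM1, SOX18 and S1PR1 were higher in central than in nasal and none was lower. That is near the 10.4% of all gene models tested that were higher. The median of the list was 0.72, against -0.03 over all gene models. With the replicate block 5 of the list were higher and 2 lower. Without central replicate 4 the median was 0.19, and of 26 tested 1 was higher and 1 lower. PECAM1, an adhesion protein of endothelial cells, was at 6.23 to 17.3 CPM in central and 2.52 to 5.68 CPM in nasal libraries, and exceeded nasal by 1.17 without that library. VEGFA was at 248 CPM in central replicate 4, within the 238 to 298 CPM of the other central libraries. Its median Pearson r with the list, of log2 CPM over all libraries, was 0.31, against -0.08 over all gene models tested. Without central replicate 4 these were 0.18 and -0.04. The part of vessel content in the VEGFA, ANGPT1, ANGPT2 and FLT1 differences was not tested. The summed levels of the lens and optic nerve glia lists, in which CRYAB, GFAP and PMP2 weighed most, differed by region as well. The lens list was summed to 171 to 234 CPM in central, 71.6 to 111 CPM in temporal and 27.0 to 45.0 CPM in nasal libraries, and the optic nerve list to 762 to 1061, 624 to 805 and 292 to 395 CPM in the same order of regions. The medians over the single genes did not follow the sums: for the lens list the median was 1.18 for central minus nasal and -0.67 for central minus temporal, and for the optic nerve list it was -0.0021 and -0.78. Their part in the VEGFA difference was not tested.

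Among genes known to set the level of VEGFA, HIF1A was graded across all 3 regions without overlap. HIF1A, the oxygen-regulated subunit of the factor that switches VEGFA on, had 1681, 1452, 1478, 1092 and 1048 CPM in central libraries, 523, 511, 561, 537 and 474 CPM in temporal libraries and 280, 210, 244, 250 and 219 CPM in nasal libraries. Central exceeded nasal by 2.49 (SE 0.125, edgeR adjusted p = 2.47e-10) and temporal by 1.37 (adjusted p = 7.59e-07), and temporal exceeded nasal by 1.11 (adjusted p = 1.21e-05). Temporal and nasal were separated for HIF1A and not for VEGFA, and a link between the levels of these genes was not tested. EGLN2, an oxygen-dependent enzyme that marks HIF proteins for breakdown, was at 3.72 to 9.72 CPM in central, 2.35 to 3.98 CPM in temporal and 0.794 to 1.84 CPM in nasal libraries, so central and temporal overlapped. Its central minus temporal call (1.09, edgeR adjusted p = 0.0275) was lost without central replicate 1 or 2 or temporal replicate 1, 4 or 5 (0.0508 to 0.0821). EPAS1, the second HIF alpha subunit, exceeded nasal in central by 0.70 (edgeR adjusted p = 0.00525). PPARGC1A, a coactivator that can raise VEGFA without HIF, was lower in central than in temporal (central minus temporal -0.95, edgeR adjusted p = 2.87e-06). Of 11 tested regulators, 3 were higher and 0 lower in central against nasal, where 10.4% of all gene models tested were higher. The regulators' median was 0.02. In central against temporal HIF1A and EGLN2 were higher and PPARGC1A lower, where 6.78% of all gene models tested were called (3.54% higher). In temporal against nasal HIF1A, EGLN2, PPARGC1A and ESRRA were higher, where 6.59% of all were called (4.40% higher). The replicate block added lower calls of PPARGC1A in central against nasal (-0.23, edgeR adjusted p = 0.0325) and ESRRA in central against temporal (-0.48, adjusted p = 0.00491), and in temporal against nasal a higher call of EPAS1 and a lower one of VHL. Levels are of transcript only, and HIF proteins are controlled largely by breakdown.

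**Figure D4:**
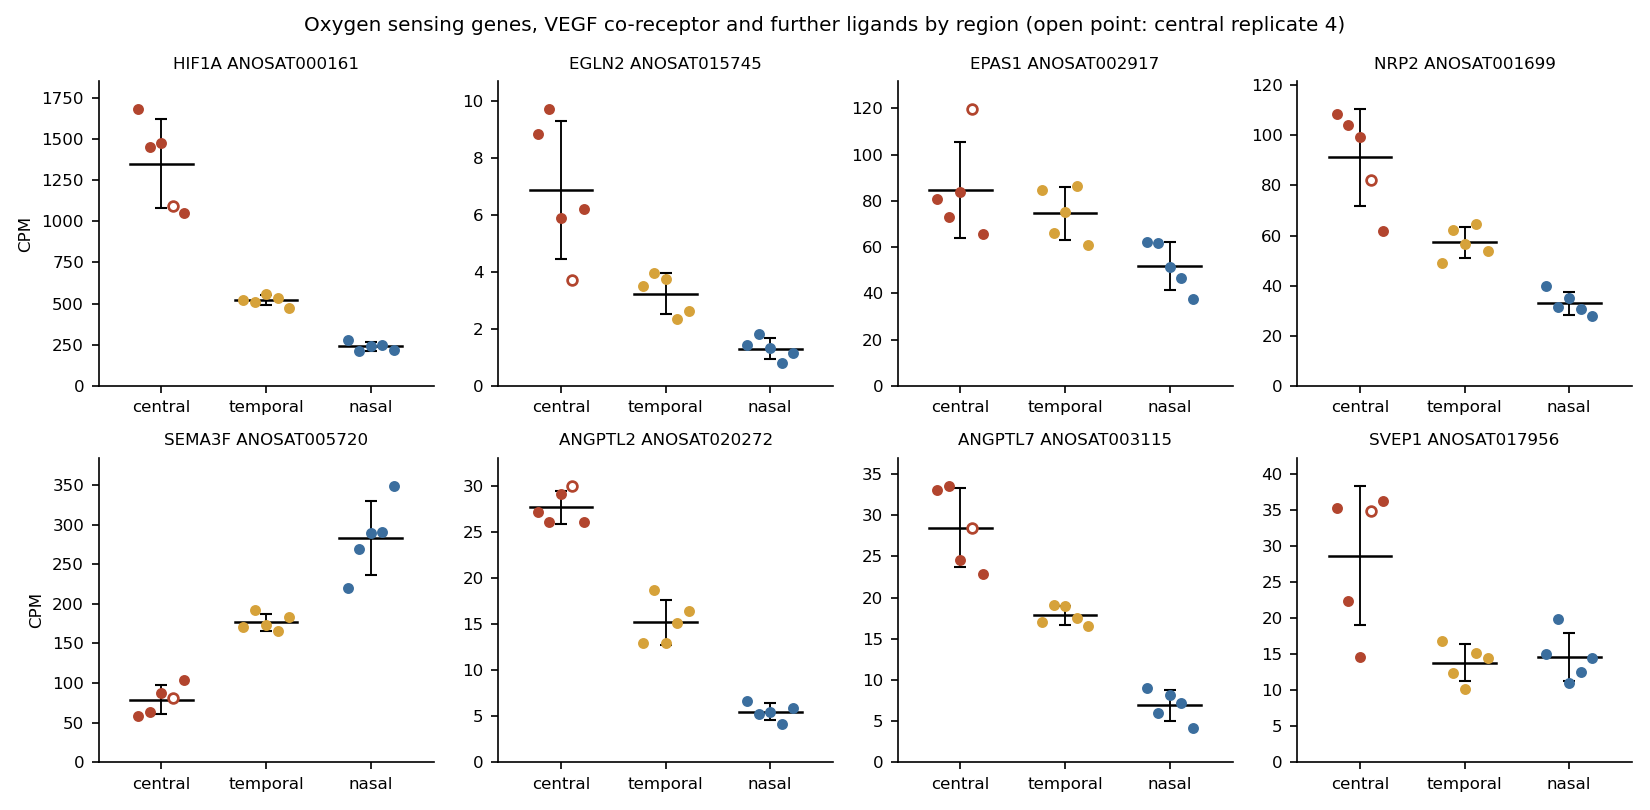
CPM of HIF1A, EGLN2, EPAS1, NRP2, SEMA3F, ANGPTL2, ANGPTL7 and SVEP1 by region, with 1 point per library and the mean and SD (n = 5 per region). HIF1A falls into 3 separate bands, at 1048 to 1681 CPM in central, 474 to 561 CPM in temporal and 210 to 280 CPM in nasal libraries, and SEMA3F runs the other way.

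Among the co-receptors and rival ligands of the VEGF receptors, NRP2 and SEMA3F were graded across the eye in opposite directions. NRP2, a neuropilin that binds VEGF ligands and semaphorins, averaged 91.2 ± 19.3 CPM in central, 57.3 ± 6.20 CPM in temporal and 32.9 ± 4.54 CPM in nasal (SD, n = 5 each), and all 3 differences passed (edgeR adjusted p = 7.53e-07, 0.00574 and 0.00171 for central minus nasal, central minus temporal and temporal minus nasal). SEMA3F, a semaphorin that uses NRP2 and holds back vessels, ran the opposite way at 78.9 ± 18.4 CPM, 177 ± 10.7 CPM and 283 ± 46.5 CPM in central, temporal and nasal. The SEMA3F central minus nasal difference was -1.84 (edgeR adjusted p = 4.77e-08). The neuropilin NRP1 was called in no contrast. It was at 53.2 to 95.7 CPM in central, 46.5 to 74.8 CPM in temporal and 49.0 to 65.3 CPM in nasal libraries. Of the 12 tested gene models of this list, 5 were higher in central than in nasal (NRP2, PLXND1, VEGFB and both gene models of SEMA3A) and 3 lower (SEMA3F, SEMA3E and SEMA3C), or 2 without central replicate 4. In temporal against nasal the same 5 gene models were higher and SEMA3F was lower, where 6.59% of all gene models tested were called (4.40% higher). In central against temporal NRP2 was higher, SEMA3F and SEMA3E lower and 9 not called, where 6.78% of all were called (3.54% higher). The list's median was 0.37 for central minus nasal, where 18.4% of all gene models tested were called.

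Of 13 tested gene models of the further angiopoietin-type list, 6 were higher in central than in nasal and 0 lower. Over all gene models tested 10.4% were higher. The list was chosen with earlier results of these data known, so this count is description only. The list had a median of 0.90, or 0.74 without central replicate 4. With the replicate block ANGPTL1 was lower too (edgeR adjusted p = 0.0491). ANGPTL2 and ANGPTL7, secreted relatives that do not act through TEK, averaged 27.7 ± 1.78 and 28.5 ± 4.84 CPM in central, 15.2 ± 2.44 and 17.9 ± 1.14 CPM in temporal and 5.48 ± 0.925 and 6.92 ± 1.89 CPM in nasal (SD, n = 5 each). Both passed in all 3 contrasts, at 2.33 and 2.05 for central minus nasal (edgeR adjusted p = 3.56e-09 and 2.22e-07). For ANGPTL7 the central minus temporal call (0.67, edgeR adjusted p = 0.0221) was lost without central replicate 1 or 2 or temporal replicate 1 (0.0508 to 0.0635). SVEP1, a matrix protein that binds TIE1, exceeded nasal in central by 0.97 and temporal by 1.05. The other 3 were the TEK ligand ANGPT4, 1 gene model of the TEK phosphatase PTPRB and the adaptor GRB14. PTPRB ANOSAT009742 was at 27.4 to 45.4 CPM in central and 18.6 to 25.3 CPM in nasal libraries. PTPRB ANOSAT012289 overlapped between these regions, at 17.6 to 54.5 CPM and 10.1 to 22.6 CPM.

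**Figure D5:**
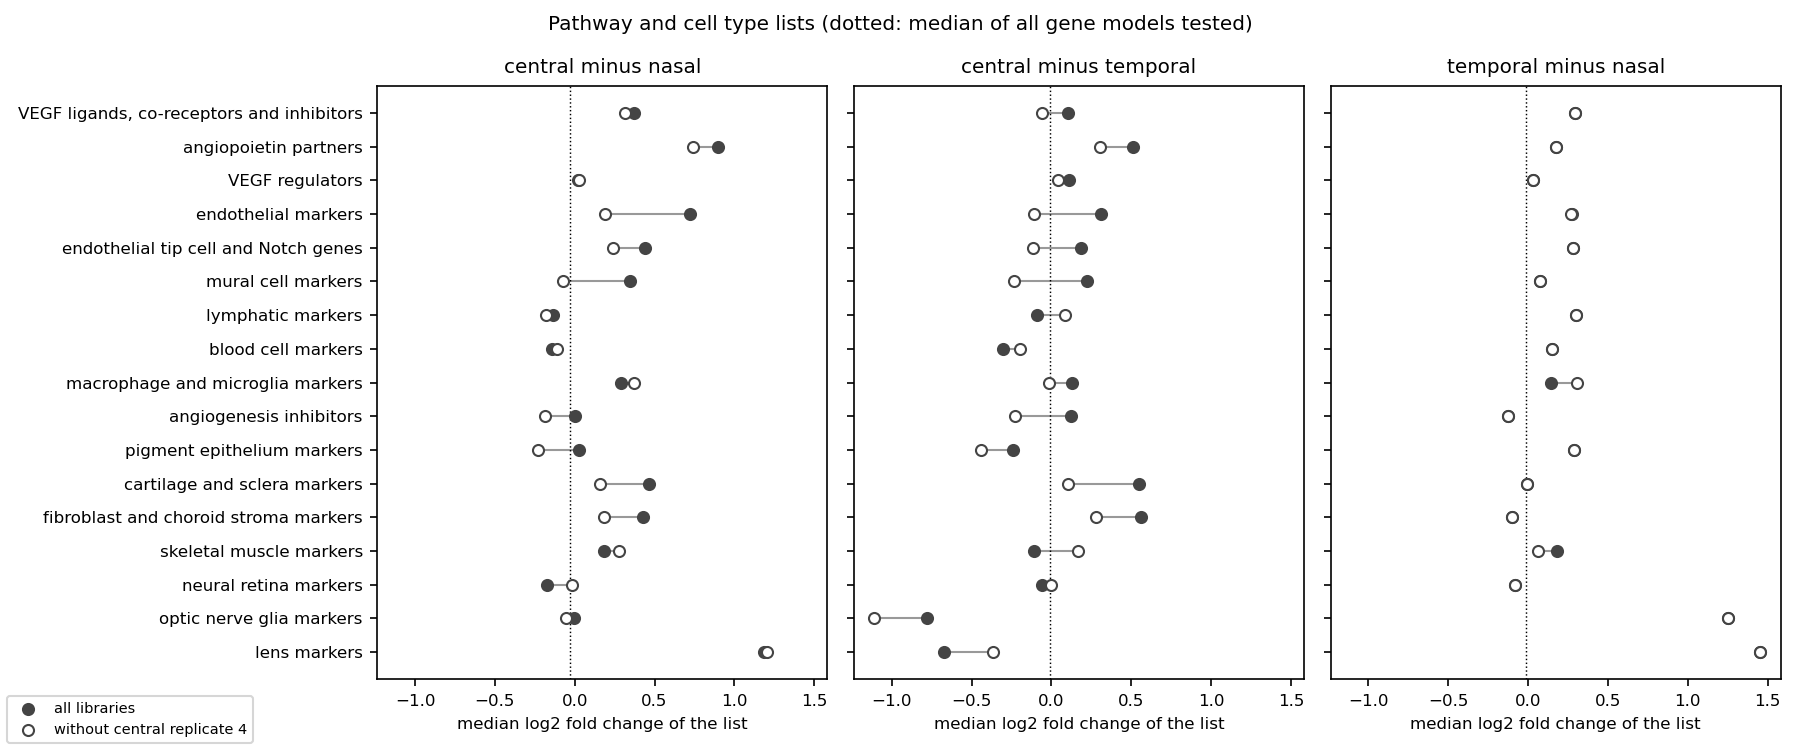
Median log2 difference of each pathway and cell type list in the 3 contrasts, with all libraries (filled) and without central replicate 4 (open); the dotted line is the median of all gene models tested. The endothelial median for central minus nasal moves to 0.19 from 0.72 when that library is left out, while that of the angiopoietin partners stays at 0.74 or above.

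The genes whose levels ran most like each member over the 15 libraries differed between members. These are Pearson correlations of log2 CPM, given as a description, and the libraries share region, replicate number and depth. VEGFA was most like ARHGAP6 (r = 0.93), PLCL2, PRMT8, SLC4A7 and DIRAS2, and none of the 100 nearest gene models was on the endothelial list. KDR ANOSAT019569 was most like LENG9 (r = 0.94), and it and FLT1 ANOSAT008868 also had 0 endothelial genes among the nearest 100. With 25 list members among 15910 gene models tested, counts of 0 in 100 say little. The median r with the list was 0.31 for VEGFA, 0.37 for KDR ANOSAT019569 and 0.17 for FLT1 ANOSAT008868. Over all gene models it was -0.08, -0.06 and 0.00095. Without central replicate 4 these were 0.18, 0.31 and 0.34, against -0.04, -0.02 and -0.04. For deviations from region means, over all 15 libraries, the median r with the list was 0.10, 0.18 and -0.24 in the same order. Over all gene models these were -0.02, -0.0068 and 0.04, so the sign for FLT1 ANOSAT008868 reversed within regions. TEK was most like ETS1 (r = 0.97), COL4A1, FOXC1, MMRN2 and ITGA8, and without central replicate 4 most like FAM81A, PTPRB, ROBO4, COL4A2 and GJA4 (r = 0.88 to 0.84). Endothelial list genes among the nearest 100 numbered 5 for TEK with and without that library, and 5 and 6 for TIE1. They numbered 7 and 3 for ANGPT2, 4 and 2 for ANGPT1, and 5 and 0 for FLT4. KDR ANOSAT012859, at the RefSeq position, was most like ZSCAN31 (r = 0.88), with 1 such gene, or 0 without central replicate 4. Its median r with the list was 0.37, or 0.08 without that library, against -0.05 and 0.01 over all gene models.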

How the data were processed

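RNA of 15 posterior eye libraries was sequenced with a stranded mRNA kit, and the table deposited by the authors holds unnormalized read counts for each gene model. The submitters' processing notes name HISAT2 2.2.1 and featureCounts. Whether counting used strand, and the genome build, are not given in the protocols and methods used here. Symbols were assigned by protein similarity. Counts were tested in R 4.3.3 with edgeR 4.0.16 (filterByExpr by region, minimum count 10, TMM, robust quasi-likelihood fit of all 15 libraries), with Benjamini-Hochberg adjustment over 15910 gene models and a threshold of 0.05. Intervals are 95% from the standard error. DESeq2 1.42.0, limma 3.58.1 (voom), other scalings and filters, and leaving out each library were alternatives. Libraries of the same replicate number deviated together (15 of 15 pairs over r = 0.1, 0.193 to 0.524, against 3 of 60 other pairs). What they share, be it embryos, preparation or sequencing run, is not stated. The main fit held region only, so its p-values leave this shared variation out. The blocked value is given where it changed a call of a member or, for central against nasal, a count of a list. Libraries of a region differed beyond sampling noise (chi-square per degree of freedom 9.28 to 58.5, 30 pairs), so none was counted as 1 library deposited again. Repeat preparations of the same RNA cannot be told apart from separate samples this way. The fit was checked on simulated counts drawn independently for each library. That check therefore did not cover variation shared by replicate number or an outlying library. Named genes are all members, at most 4 called gene models per list by smallest p, and the 5 gene models most like each member. List genes named where 5 or fewer were called, as defining markers, or uncalled as NRP1 was, were chosen after their values were seen. Members and lists were chosen with earlier results of these data known, so their counts beside the share over all gene models are description only. No sequence is shown, since no sequence table was used here. Levels were not compared between genes, for lack of lengths. Plots were drawn with matplotlib 3.10.9. A few genes that these rules would name are not reported here.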

Additional observations from a re-analysis of the deposited data

Results flagged for a closer look

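For the 14 tested gene models, the 5 libraries of each region were examined for a highest or lowest one lying apart (42 examinations, and chance gives such a library in about 1 of 20). There were 5 such values, and 4 of them lie in central replicate 4. In that library KDR ANOSAT012856 was low, at 0.256 CPM against 1.03 to 1.33 CPM in the other central libraries. FLT4 was high, at 29.7 CPM against 8.96 to 11 CPM. TEK was high, at 34.7 CPM against 7.05 to 7.75 CPM, and ANGPT1 at 7.69 CPM against 2.88 to 3.45 CPM. The fifth was TEK in temporal replicate 4, at 10.1 CPM against 5.62 to 6.46 CPM in the other temporal libraries, and that library also had the highest endothelial sum of its region, 192 CPM.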

How the results depend on the processing

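VEGFA in central against both other regions, and FLT1 ANOSAT008868 and KDR ANOSAT019569 in central against nasal, passed under all 24 alternatives. In central against nasal, 3 members were called with 2 regions only, where 2250 of 15424 gene models were, and 6 with the replicate block. In temporal against nasal, 2 members were called with DESeq2, 3 with the replicate block, 5 with the block and without central replicate 4, 3 with limma-voom and 0 with gene models of a symbol summed. All gene models called there numbered 1511 of 15910 with DESeq2, against 1048 of 15910 in the main fit. With symbols summed, 1022 of 13292 were called. Among the 15910 gene models tested, the block gave 4437 calls for central minus nasal, 2022 for central minus temporal and 2214 for temporal minus nasal. The block without central replicate 4 gave 5095, 2272 and 3378 of 16063 tested. With limma-voom there were 4641 and 2425 of 15910 for central minus nasal and temporal minus nasal. With 1 library left out, members called numbered 3 to 6 in central against nasal and 0 to 2 in temporal against nasal. All gene models called numbered 2404 to 3303 and 680 to 1485 in these contrasts. The block changed no other call of a member, and the cause of these moves was not tested.

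Differences close to 0 changed sign, none of them past the threshold. For central minus nasal, FLT4 was -0.0773 with the block and without central replicate 4 and -0.16 with limma-voom, and KDR ANOSAT012859 was 0.000818 with DESeq2, 0.00117 with RLE scaling and 0.00113 with 2 regions only. For central minus temporal, ANGPT2 was -0.0094, FLT4 -0.16 and KDR ANOSAT012859 -0.00392 with limma-voom, FLT4 was -0.11 and KDR ANOSAT012856 0.0852 with the block and without central replicate 4, and FLT1 ANOSAT019567 was -0.0495 with the block. For temporal minus nasal, VEGFA was -0.0276 with limma-voom and FLT4 -0.00319 with the block. With 1 library left out, the central minus nasal values ran from -0.14 to 0.44 for FLT4, -0.14 to 0.23 for TIE1, -0.0934 to 0.039 for KDR ANOSAT012859 and -0.0515 to 0.34 for FLT1 ANOSAT019568. The central minus temporal values ran from -0.20 to 0.43 for FLT4, -0.0777 to 0.26 for FLT1 ANOSAT008868, -0.0011 to 0.14 for KDR ANOSAT012859 and -0.10 to 0.26 for FLT1 ANOSAT019567. The temporal minus nasal values ran from -0.014 to 0.23 for VEGFA, -0.10 to 0.16 for FLT4, -0.30 to 0.0693 for KDR ANOSAT012858 and -0.25 to 0.0384 for VEGFC. The share of VEGFA reads in the second gene model differed by -0.0212 to 0.0465, -0.0619 to 0.0264 and -0.0048 to 0.0656 percentage points for central minus nasal, central minus temporal and temporal minus nasal, with paired replicate numbers giving 0.0216, -0.0192 and 0.0407. At these depths a gene model with 0 reads in a library may have up to 3.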

Other observations

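In central against nasal, where 18.4% of all gene models tested were called and 10.4% were higher, sprouting and Notch genes moved in both directions. Of 15 tested, CXCR4, a chemokine receptor of tip cells and neurons, and HEY2, a Notch target of arteries, were higher in central than in nasal, by 1.38 and 1.18, while HEY1 and the receptor NOTCH1 were lower, by -0.74 and -0.67 (edgeR adjusted p = 0.00109, 0.00148, 0.00181 and 0.00188). With 1 library left out, these ran from 1.07 to 1.58, 0.95 to 1.36, -0.83 to -0.66 and -0.73 to -0.60. Among 9 secreted inhibitors of vessel growth, THBS1 was higher by 1.19 and VASH1 lower by -0.65, and CHRDL1 was lower too with the replicate block. With 1 library left out, THBS1 ran from 0.85 to 1.31 and VASH1 from -0.69 to -0.58. Without central replicate 4, 1 inhibitor was higher and 2 were lower. Of 14 mural cell gene models, 4 were higher in central than in nasal (FOXD1, FOXC1, ABCC9 and CSPG4), and FOXD1 is also a factor of the temporal retina. The median of the mural list was 0.35, or -0.08 without central replicate 4, when 3 were higher and 2 lower. With the replicate block 4 were higher and NOTCH3 was lower (adjusted p = 0.0458).

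Of the other cell type lists, blood had 0 called of 13 in central against nasal, and 1 higher (TFRC) with the replicate block. Over all gene models tested, 18.4% were called in that contrast and 10.4% were higher. Macrophage and microglia genes had 1 higher of 7 (CSF1R), lymphatic genes 1 higher (ADAMTS3, which helps process VEGFC) and 1 lower (RELN) of 7, and skeletal muscle 1 lower of 8 (CKM). Fibroblast genes had 1 higher of 13 (COL3A1) and cartilage genes 3 higher of 13 (COL9A2 and both gene models of CHAD), which became 4 and 5 with the replicate block, with 1 lower cartilage gene (COL2A1). Without central replicate 4 fibroblast genes had 0 called, and cartilage genes 1 higher and 1 lower. Pigment epithelium genes had 3 higher (LRAT, RLBP1 and RPE65) and 2 lower (TTR and BEST1) of 15, or 4 lower without central replicate 4. Neural retina genes had 3 higher (PRDM1, POU4F2 and RCVRN) and 7 lower of 21, among them NEUROD1 and ISL1, or 4 and 8 with the block. Optic nerve glia genes had 3 higher (PAX2, PMP2 and GFAP) and 2 lower of 9 (4 and 2 with the block, 4 and 3 without central replicate 4), and lens genes 4 higher of 10 (BFSP2, CRYBA1 and both gene models of CRYAB). CRYBA1 was scarce in both regions, with a mean of 0.940 CPM in central and 0.156 CPM in nasal.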
